A study of Rattus norvegicus with 15 samples.

Results

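The genes described here encode the machinery through which the small GTPase Rac remodels actin: the Arp2/3 complex, the WAVE complex and N-WASP, the PAK kinases, the LIM kinase, Slingshot and cofilin branch, their scaffolds, and profilin and capping protein. They were chosen by gene symbol from a list of 36 names. Of these, 35 were listed in the expression table, on 36 of its 12169 rows, since Cttn occupied 2 rows. Pfn2 was not listed and is not analysed here. All 36 rows passed the filter on low values, as did 11515 rows in all.

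RNA was sequenced from rat cells of 5 groups, with 3 libraries each. They were mesenchymal stem cells, grown out of the femoral marrow of Sprague Dawley animals and used at passages 3 to 5. Cells of the group shRac1+OGD had received shRac1 lentivirus and then 12 h of oxygen-glucose deprivation (OGD), in sugar-free medium at 1% O2, followed by 24 h of reoxygenation. Cells of shLuci+OGD had received shLuci lentivirus and the same deprivation. The groups shRac1 and shLuci had received the named virus only, and BMSC cells had received neither virus nor deprivation. The age and number of the rats are not given in the sources used here, nor is whether replicates came from separate animals or cultures, so p-values measure the spread between libraries, which may be technical. Values are FPKM, which are scaled for transcript length and library size, and no read counts were used, so the depth behind each value is unknown.

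As background, Rac bound to GTP engages the WAVE complex, which switches on the Arp2/3 complex, and Arp2/3 starts a new actin branch on the side of an existing filament. Rac also activates PAK kinases, which phosphorylate LIM kinases. LIM kinases in turn phosphorylate and silence cofilin, which severs actin filaments, and Slingshot phosphatases reverse that step. In migrating mesenchymal cells this machinery drives the lamellipodium, the flat protrusion at the leading edge.

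The promoters of the members whose levels differed most clearly between groups are shown first: those of Baiap2, Limk2 and Arpc5, which were higher after OGD, and that of Cfl2, which differed between the shRac1 and shLuci libraries. Each is the 250 bases before the gene's start, taken from RefSeq in the GRCr8 build. Capitals mark the GC box GGGCGG, the letters TATAAA of the box of that name, and ACGTG, the core of the hypoxia response element, on either strand.
Baiap2 (chr10:105721306-105721555, plus strand): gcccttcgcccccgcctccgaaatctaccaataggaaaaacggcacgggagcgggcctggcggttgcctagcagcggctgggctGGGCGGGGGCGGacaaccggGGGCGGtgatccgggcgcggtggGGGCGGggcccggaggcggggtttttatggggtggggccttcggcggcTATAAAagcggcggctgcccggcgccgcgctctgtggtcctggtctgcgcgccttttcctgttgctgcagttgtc
Limk2 (chr14:82509645-82509894, minus strand): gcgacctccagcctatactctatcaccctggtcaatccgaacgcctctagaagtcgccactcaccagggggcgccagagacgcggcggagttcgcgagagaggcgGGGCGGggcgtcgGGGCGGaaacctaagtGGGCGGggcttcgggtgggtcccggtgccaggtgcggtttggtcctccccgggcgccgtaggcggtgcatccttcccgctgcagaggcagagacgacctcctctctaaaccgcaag
Arpc5 (chr13:67454129-67454378, plus strand): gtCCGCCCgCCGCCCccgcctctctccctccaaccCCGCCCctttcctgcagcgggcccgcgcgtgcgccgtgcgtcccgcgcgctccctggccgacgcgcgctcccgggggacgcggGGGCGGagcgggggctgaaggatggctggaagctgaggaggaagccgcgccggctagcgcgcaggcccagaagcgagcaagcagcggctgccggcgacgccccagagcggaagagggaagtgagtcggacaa
Cfl2 (chr6:78094889-78095138, minus strand): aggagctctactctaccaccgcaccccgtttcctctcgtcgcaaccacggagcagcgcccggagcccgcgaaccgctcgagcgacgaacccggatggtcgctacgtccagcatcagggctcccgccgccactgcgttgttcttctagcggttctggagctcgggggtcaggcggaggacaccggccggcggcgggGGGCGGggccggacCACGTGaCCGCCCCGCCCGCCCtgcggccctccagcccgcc
The promoters of Baiap2 and Arpc5 held 4 GC boxes each and that of Limk2 held 3. A TATAAA stood 75 bases before the start of Baiap2. Of these promoters that of Cfl2 alone held ACGTG, as CACGTG, which reads the same on both strands, beside 4 GC boxes of which those after it overlap one another. RefSeq promoters were found for 35 of the 36 names, all but Arpc1a. GGGCGG was present in 31 of the 35 (88.6%), against 59.6% of the 9352 promoters of genes tested, and the median GC content was 68.0% in the members against 60.4% over all. ACGTG was present in 6 (17.1%, against 22.1%): Arpc4, Capza1, Cfl2, Pak1, Pfn2 and Ssh1. TATAAA was present in Baiap2 and Iqgap1 (5.71%, against 6.2%), and GGAATG, a TEAD site, in 3 (8.57%, against 9.83%). No member promoter held the AP-1 site TGANTCA (4.35% of all) or a CArG box (1.3% of all) in this window. These matches describe the letters of the promoters and were not measured as binding.

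Some properties of the series bear on every value given here. Rac1, the target of the shRac1 hairpin, averaged 147 ± 4.96 FPKM in shRac1 libraries and 156 ± 9.9 FPKM in shLuci libraries (SD, n = 3 each). Its log2 change was -0.09 with a 95% confidence interval of -0.25 to 0.08 (limma, adjusted p = 0.577), and an exact two-sided permutation test gave p = 0.3 (this design cannot go below 0.1). After OGD it averaged 155 ± 2.57 FPKM in shRac1+OGD libraries and 156 ± 14.6 FPKM in shLuci+OGD libraries (limma, adjusted p = 1). Rac1 transcript was thus not measurably lower in the libraries labelled shRac1. The authors' deposited lists of changed genes cover shLuci against shRac1, shLuci against BMSC, BMSC against shRac1 and shRac1+OGD against shLuci+OGD, by the libraries' titles. For OGD against undeprived libraries they set shLuci+OGD against shRac1 and shRac1+OGD against BMSC. Each comparison below that separates the viruses, the OGD effects within a virus and their interaction included, therefore rests on library labels that Rac1 does not bear out. The comparison of all 6 OGD libraries with all 9 undeprived libraries uses only the OGD label and leads the account. All OGD cells had received a virus, whereas the undeprived libraries include BMSC cells without one. In that comparison OGD is therefore not fully separated from transduction.

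BMSC replicate 2 stood apart from the rest. Its FPKM summed to 628685, against 463945 to 516495 in the other 14 libraries, and 144 genes were listed at 0 in it, against 42 to 78. Among the members, the highest ratios in it were those of short genes and the lowest those of long ones, with exceptions such as Cfl2, of 4.0 kb, at 0.751 times and Capzb, of 99.7 kb, at 1.38 times the mean of BMSC replicates 1 and 3. Pfn1, of 2.7 kb, was at 1.95 times that mean, and Ssh2, of 109 kb, at 0.11 times. Across the 36 rows, the library's deviation from its group and the length of the gene had a Spearman correlation of -0.582, and of -0.463 over all genes tested, a description over genes of 1 library. Such a relation with length was not particular to it: across the 36 rows it was -0.587 for shRac1+OGD replicate 3, -0.574 for shLuci+OGD replicate 2, -0.564 for shLuci replicate 1 and 0.60 for BMSC replicate 1, whose deviation is taken from a mean that includes replicate 2. The size of its deviations set BMSC replicate 2 apart. Its value lay more than 1.5-fold from the mean of the other 2 BMSC libraries for 20 of the 36 rows, against at most 2 rows in any library of the other 4 groups. BMSC replicates 1 and 3 had 11 and 6 such rows, measured from means that include replicate 2. All comparisons below share the spread estimated over all 5 groups, so each count is given with and without this library.

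**Figure D1:**
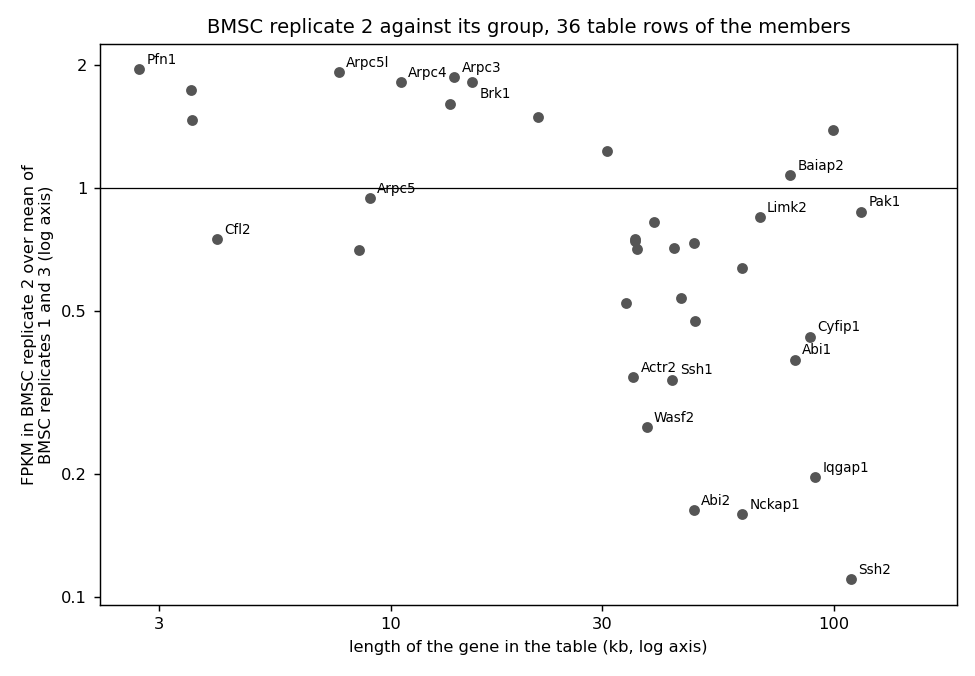
FPKM of each of the 36 rows in BMSC replicate 2, divided by the mean of BMSC replicates 1 and 3 (y axis, log scale), against the length of the gene in the table (x axis, kb, log scale). Pfn1, Arpc5l and Arpc3 lie near 1.9 at the short end, and Ssh2, Nckap1 and Abi2 lie below 0.2 among the long genes.

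The mesenchymal markers Thy1, Cd44 and Itgb1 were listed, at a summed 997 to 1173 FPKM in the OGD libraries and 812 to 1323 FPKM in the undeprived ones, while Eng and Nt5e were not among the listed genes. Of 6 haematopoietic markers only Cd14 was listed, at 8.63 to 12.9 FPKM in OGD libraries and 6.28 to 8.40 FPKM in undeprived ones. In the comparison of all OGD with all undeprived libraries Thy1 fell by 0.16 on the log2 scale (limma, adjusted p = 0.0376) and Cd14 rose by 0.46 (adjusted p = 0.000336). Of the blood-cell forms of the machinery, Coro1a was listed at 0.621 to 1.09 FPKM in OGD libraries and 0.225 to 0.587 FPKM in undeprived ones, without overlap but below the filter on low values, and Was, Nckap1l, Arhgdib, Rac2, Vav1 and Hcls1 were not among the listed genes. The part of these markers in the changes of the members was not tested. In bulk libraries fewer cells of a type and less RNA per cell cannot be told apart.

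The levels of the members spanned 3 orders of magnitude, on a scale already divided by transcript length. Cfl1, the main non-muscle cofilin, and Pfn1, the main profilin, which loads actin monomers onto growing ends, were the most abundant, with means of 1207 and 1086 FPKM over the 15 libraries. Arhgdia, an inhibitor that holds Rac inactive in the cytosol, followed at 449 FPKM. The Arp2/3 subunits lay between 68.9 FPKM for Arpc5l and 303.5 FPKM for Arpc1b. The regulators were scarcer: Limk2 averaged 14.1 FPKM, Pak2 15.4 FPKM and Pak4 10.3 FPKM, while Ssh1, Wasf1, Limk1 and Ssh2 lay below 5 FPKM. Pak1, at 64.1 FPKM, was the most abundant PAK. The spread differed among members. Leaving out BMSC replicate 2, the highest library was 1.16 times the lowest for Actr3 and 1.19 times for Capzb, the smallest such ratios. The largest were 2.66 times for Baiap2 and 2.61 times for the scarce Ssh2.

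**Figure D2:**
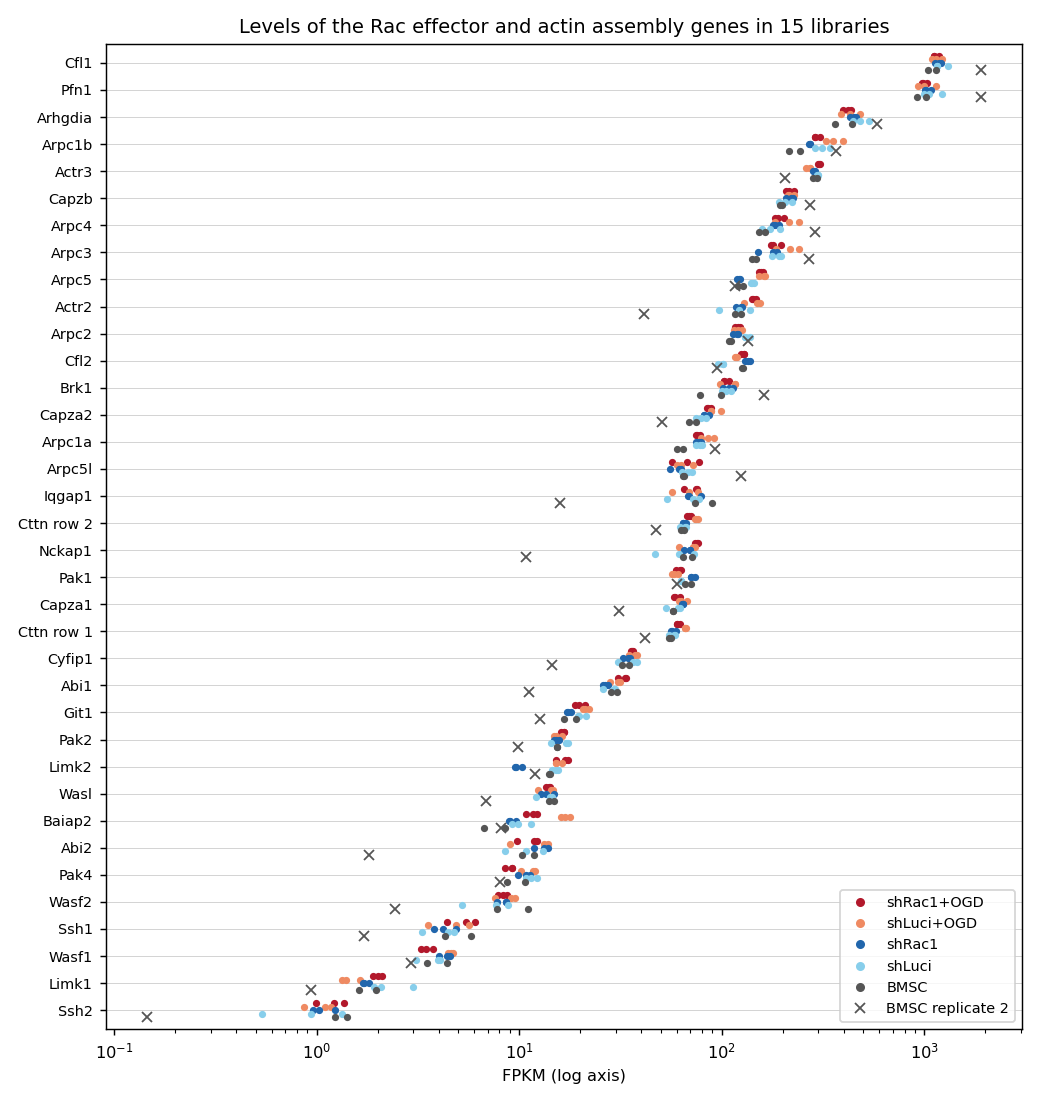
FPKM of the 36 rows in each of the 15 libraries (x axis, log scale), ordered by mean, with points coloured by group and a cross for BMSC replicate 2. The libraries of a gene lie close together for most members, the crosses lie apart for many, and Baiap2 and Limk2 show separate groups.

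The first comparison asked which members differed between the OGD libraries, of both viruses, and the undeprived libraries, of both viruses or none. In the 6 OGD libraries, 6 rows rose and 1 fell relative to the 9 undeprived libraries, and 29 did not pass the test (limma, Benjamini-Hochberg adjusted p below 0.05 over all 11515 rows). The 7 called rows are 19.4% of the members, against 26.7% of all rows tested, and the difference between these shares was not tested. With BMSC replicate 2 left out, 13 rows rose and 1 fell (38.9%, against 49.2% of all rows), among them all 7 called with it. The members' median log2 change was 0.14 and that of all rows 0.10, or 0.06 and 0.08 without BMSC replicate 2. Of the calls over all rows 70.1% were higher, 2157 against 922 lower, but 46.8% with median-of-ratios scaling, 1256 against 1428, under which 3 member rows rose and 1 fell. The rows called were those of Baiap2, Limk2, Arpc5, Capza2 and both of Cttn, which rose, and Pak1, which fell.

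**Figure D3:**
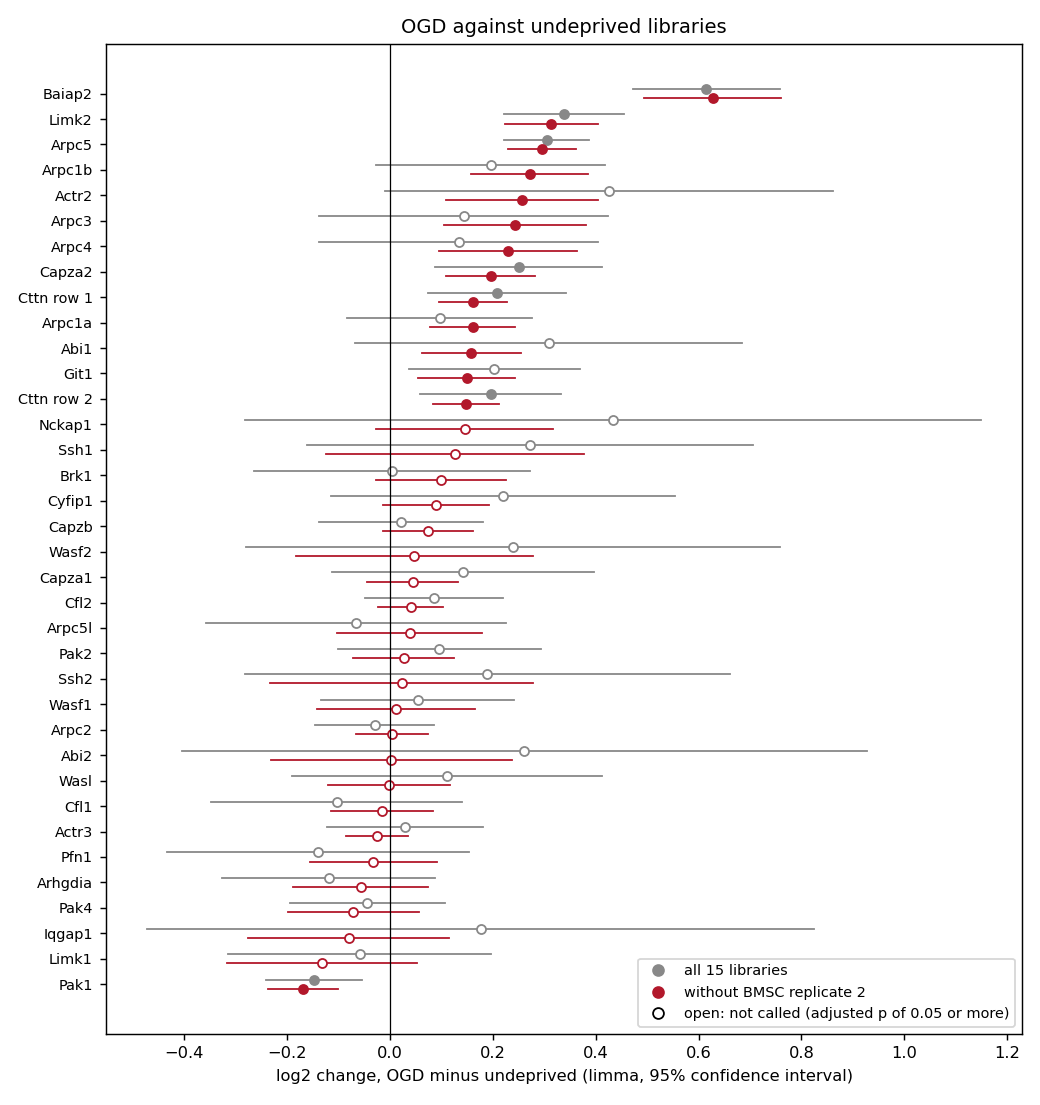
Log2 change of each row, OGD minus undeprived libraries, from limma with its 95% confidence interval (x axis), with all 15 libraries in grey and without BMSC replicate 2 in red; filled points were called at an adjusted p below 0.05. Baiap2, Limk2 and Arpc5 lie farthest to the right in red, followed by Arpc1b and Actr2, whose grey intervals reach 0, and Pak1 lies farthest to the left in red.

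Among the 9 Arp2/3 subunits, Arpc5 was the one called in that comparison. Arpc5 (chromosome 13) encodes the smallest subunit, and Arpc5l encodes its alternative. Arpc5 was measured at 157, 152 and 161 FPKM in shRac1+OGD libraries and at 153, 163 and 162 FPKM in shLuci+OGD libraries. It was measured at 119, 122 and 124 FPKM in shRac1 libraries, at 145, 139 and 142 FPKM in shLuci libraries and at 119.9, 117 and 127 FPKM in BMSC libraries. All 6 OGD libraries were thus above all 9 undeprived ones, as for both rows of Cttn and for 4.94% of all rows in that direction. The log2 change was 0.30 with a standard error of 0.04 (limma, adjusted p = 8.09e-05), and it was called under all 26 alternatives tried, with adjusted p up to 0.00499. Arpc5l ranged over 56.9 to 77.2 FPKM after OGD and 55.8 to 124 FPKM without, with a log2 change of -0.07 (limma, adjusted p = 0.757), and its highest value was that of BMSC replicate 2. Arpc5 made up 70.1% ± 2.62 of the summed FPKM of Arpc5 and Arpc5l in shRac1+OGD libraries and 71.1% ± 1.52 in shLuci+OGD libraries. That share was 66.9% ± 0.95 in shRac1, 67.7% ± 1.12 in shLuci and 59.9% ± 9.97 in BMSC libraries (SD, n = 3 each), where BMSC replicate 2 had 48.4%.

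The other Arp2/3 subunits had log2 changes between -0.07 and 0.43 and none passed the test with all 15 libraries. With that library left out, 6 of the 9 subunits rose, against 34.4% of all rows, and none fell. These were Arpc5, Arpc1b (log2 change 0.27, adjusted p = 0.000862), Actr2, which is the Arp2 actin-related core (0.26, 0.00745), Arpc3 (0.24, 0.00655), Arpc4 (0.23, 0.00801) and Arpc1a (0.16, 0.00357), all by limma. With all 15 libraries the log2 changes of Arpc1b, Actr2, Arpc3, Arpc4 and Arpc1a were 0.20, 0.43, 0.14, 0.13 and 0.10, and that of Arpc1a was -0.01 with median-of-ratios scaling. Arpc1b, Arpc3, Arpc4 and Arpc1a were high in BMSC replicate 2, at 1.49 to 1.87 times the mean of the other 2 BMSC libraries, and Actr2 was low in it, at 0.345 times. Arpc2 and Actr3, the Arp3 core, had log2 changes of 0.00 and -0.03 without that library and were not called. Within the viruses in that fit, Arpc1b, Arpc3 and Arpc1a were not called with OGD. Their adjusted p was 0.0634, 0.138 and 0.072 for shLuci and 0.314, 0.519 and 0.844 for shRac1 (limma). Arpc4 and Actr2 were called for shLuci only, and Arpc5 for both. Without deprivation, Arpc1b, Arpc3 and Arpc1a were also called higher in shLuci than in BMSC libraries in that fit. Summed over the 9 subunits, FPKM averaged 1537 ± 47.6 in shRac1+OGD and 1631 ± 66.0 in shLuci+OGD libraries. The sum was 1414 ± 30.5 in shRac1, 1515 ± 41.9 in shLuci and 1414 ± 199.6 in BMSC libraries (SD, n = 3 each).

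None of the 8 genes of the WAVE complex and N-WASP passed the test after OGD with all 15 libraries. Their log2 changes lay between 0.00 for Brk1 and 0.43 for Nckap1. Nckap1 encodes the large scaffold that pairs with Cyfip1, and it had 10.8 FPKM in BMSC replicate 2 against 46.9 to 76.1 FPKM in the other libraries. Without that library the range was 0.00 for Wasl to 0.16 for Abi1. Abi1, which bridges the complex to its regulators, was then called (adjusted p = 0.0101, limma), with a lowest, median and highest value of 28.3, 31.2 and 33.8 FPKM after OGD and, over all 9 undeprived libraries, of 11.2, 27.6 and 30.3 FPKM. Those ranges overlap. Wasf1 and Wasf2, which encode the WAVE proteins that activate Arp2/3, were both below 12 FPKM in every library.

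The PAK kinases showed the 1 member row that fell. Pak1 (chromosome 1) had 63.0, 59.2 and 62.5 FPKM in shRac1+OGD and 57.0, 58.3 and 60.6 FPKM in shLuci+OGD libraries. It had 70.3, 73.5 and 70.4 FPKM in shRac1, 63.1, 63.3 and 62.9 FPKM in shLuci and 70.9, 60.1 and 66.3 FPKM in BMSC libraries. The ranges met at about 60 to 63 FPKM. The log2 change was -0.15 with a standard error of 0.04 (limma, adjusted p = 0.0234). The call was lost on rescaling to a common total (adjusted p = 0.325) and under quantile normalization (0.125). It was also lost without shRac1 replicate 2 (0.0512), without shLuci+OGD replicate 1 (0.0573) or 2 (0.052) and without shRac1+OGD replicate 2 (0.0724). Pak2 and Pak4 had log2 changes of 0.10 and -0.04 and were not called. Git1, a scaffold that brings PAK to adhesions, had a log2 change of 0.20 (adjusted p = 0.0692), and rose by 0.15 without BMSC replicate 2 (adjusted p = 0.0129, limma).

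In the branch that acts on cofilin, Limk2 (chromosome 14), a kinase that silences cofilin, rose after OGD. It had 17.5, 16.9 and 15.2 FPKM in shRac1+OGD libraries and 15.2, 16.3 and 15.2 FPKM in shLuci+OGD libraries. It had 9.62, 10.3 and 9.55 FPKM in shRac1 libraries, 15.5, 14.6 and 15.2 FPKM in shLuci libraries and 14.2, 12.0 and 14.0 FPKM in BMSC libraries. The shLuci libraries lay close to the OGD libraries, 1 of them below all 6, and the shRac1 libraries lay below all others. The log2 change over all OGD libraries was 0.34 with a standard error of 0.05 (limma, adjusted p = 0.000503), and it held under all 26 alternatives. Limk1, the other LIM kinase, was at 1.34 to 2.10 FPKM after OGD and 0.938 to 2.98 FPKM without, with a log2 change of -0.06, and was not called. The Slingshot genes Ssh1 and Ssh2 had log2 changes of 0.27 and 0.19 and were not called. Ssh2 was at 0.146 FPKM in BMSC replicate 2, against 0.541 to 1.41 FPKM elsewhere. The cofilins themselves were not called: Cfl1 changed by -0.10 with a confidence interval of -0.35 to 0.14, and Cfl2 by 0.09 with one of -0.05 to 0.22, on the log2 scale.

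Baiap2 (chromosome 10) encodes IRSp53, the adaptor that links Rac and Cdc42 to WAVE and bends membrane, and it had the largest change of the 36 rows. It had 11.7, 12.2 and 10.8 FPKM in shRac1+OGD and 16.1, 17.9 and 16.9 FPKM in shLuci+OGD libraries. It had 8.88, 9.62 and 9.06 FPKM in shRac1, 9.90, 11.4 and 9.26 FPKM in shLuci and 8.47, 8.18 and 6.73 FPKM in BMSC libraries. The shLuci+OGD libraries stood above every other library, while the lowest shRac1+OGD library, at 10.8 FPKM, lay below the highest shLuci library. Over all OGD libraries the log2 change was 0.62 with a standard error of 0.07 (limma, adjusted p = 2.37e-05), and it held under all 26 alternatives.

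Cttn encodes cortactin, which stabilises Arp2/3 branches. Its 2 rows, both on chromosome 1 with spans of 35455 and 35465 bases, held values in a ratio of 0.865 to 0.888 in every library. Reads may have been shared between these near-identical copies, so both are uncertain and count as 1 gene. The first had a lowest, median and highest value of 59.9, 64.0 and 67.0 FPKM after OGD and of 41.7, 56.4 and 59.3 FPKM without. No OGD library lay below an undeprived one. The log2 changes of the rows were 0.21 and 0.20 (limma, adjusted p = 0.0252 and 0.0369). Of the 26 alternatives, 7 ended the call of the first row and 15 that of the second. Both were lost under median-of-ratios scaling, with log2 changes of 0.10 and 0.09. Leaving out shLuci+OGD replicate 3 gave adjusted p of 0.0572 and 0.0792, shLuci+OGD replicate 2 gave 0.0513 and 0.0693, shRac1+OGD replicate 1 gave 0.064 and 0.0867, and shRac1+OGD replicate 3 gave 0.0515 and 0.0721. The second row was also lost without any 1 of the shLuci or shRac1 libraries, without shLuci+OGD replicate 1 or without shRac1+OGD replicate 2, at adjusted p of 0.0532 to 0.0673. Capza2, an alpha subunit of the protein that caps filament ends, had a lowest, median and highest value of 84.8, 88.7 and 99.3 FPKM after OGD and of 51.0, 78.8 and 87.0 FPKM without. Its log2 change was 0.25 (limma, adjusted p = 0.0258), with adjusted p of 0.0514 without shLuci replicate 1, 0.0705 without shLuci+OGD replicate 1, 0.0546 without shRac1+OGD replicate 1, 0.0647 without shRac1+OGD replicate 2 and 0.102 under median-of-ratios scaling. Iqgap1, Arhgdia, Pfn1, Capza1 and Capzb had log2 changes between -0.14 and 0.18 and were not called.

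**Figure D4:**
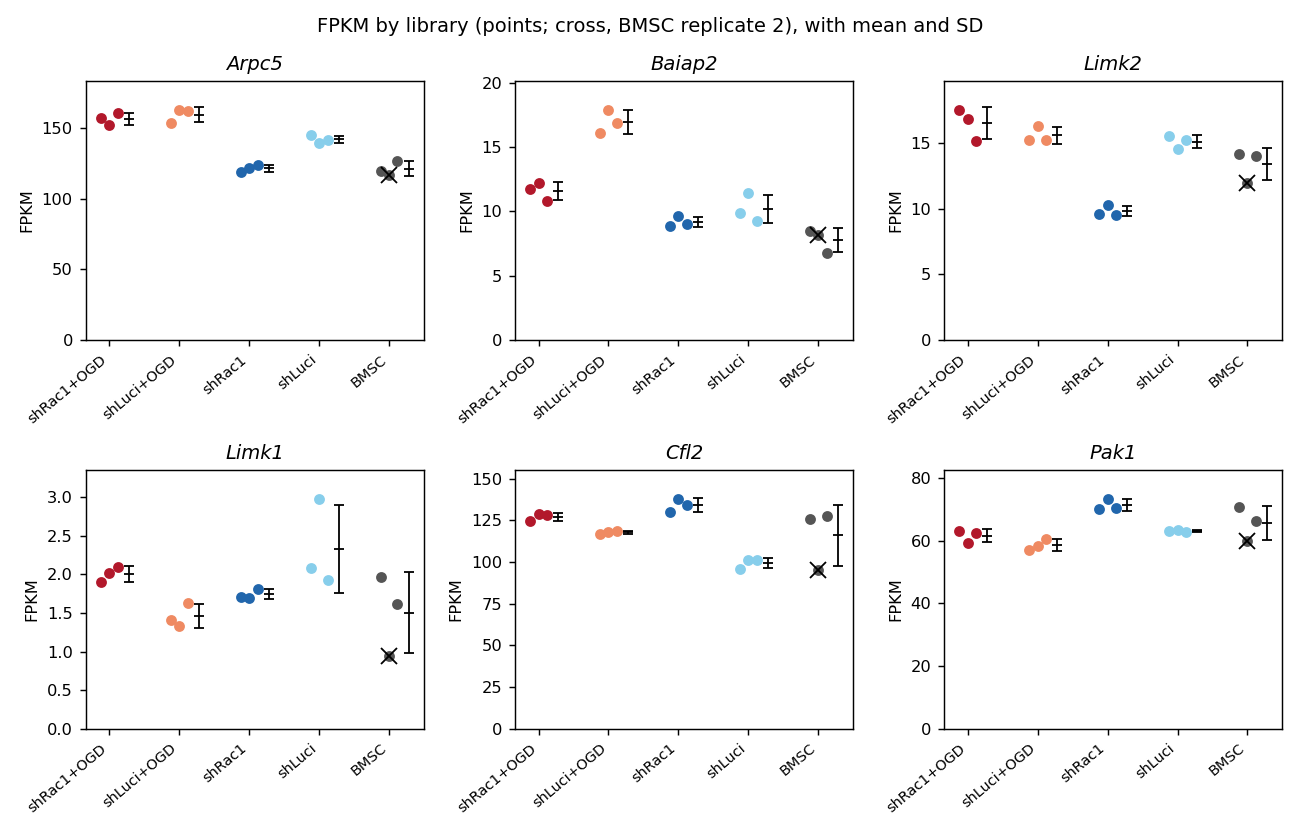
FPKM of 6 members in each library by group (points, with a cross over BMSC replicate 2), with the mean and SD of each group of 3 beside them; all y axes start at 0. Arpc5 is at 152 to 163 FPKM in the OGD libraries and at most 145 FPKM elsewhere, Baiap2 is highest in shLuci+OGD, Limk2 is lowest in shRac1, and Cfl2 is higher in shRac1 than in shLuci libraries.

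The effect of OGD was then taken within each virus. Between shRac1+OGD and shRac1 libraries, 2 of the 36 rows rose and none fell (11.9% of all rows were called), or 4 and 1 without BMSC replicate 2, where 30.1% of all rows were called. Limk2 averaged 16.5 ± 1.21 FPKM in shRac1+OGD and 9.82 ± 0.409 FPKM in shRac1 libraries (SD, n = 3 each), a log2 change of 0.72 (limma, adjusted p = 9.12e-05). Arpc5 averaged 157 ± 4.31 FPKM in shRac1+OGD and 121 ± 2.59 FPKM in shRac1 libraries, a log2 change of 0.37 (limma, adjusted p = 0.00117). In the fit without BMSC replicate 2, Baiap2 (0.32) and Abi1 (0.28) also rose and Pak1 fell by 0.21 on the log2 scale. Between shLuci+OGD and shLuci libraries, 1 row rose and none fell (22.3% of all rows were called), or 9 and 3 without BMSC replicate 2, where 45.7% of all rows were called. Baiap2 was the row called, at 17.0 ± 0.917 FPKM in shLuci+OGD and 10.2 ± 1.10 FPKM in shLuci libraries, a log2 change of 0.71 (limma, adjusted p = 0.000217). The rows called besides it without BMSC replicate 2 were Arpc4, Arpc5, Actr2, Wasf1, Cfl2, Capza2 and both of Cttn, which rose by 0.17 to 0.28 on the log2 scale, and Arpc2, Actr3 and Limk1, which fell by 0.14, 0.14 and 0.52 on that scale.

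The difference between these effects was tested as an interaction, and 1 row passed, Limk2 (16.7% of all rows passed), or 7 rows without BMSC replicate 2 (36.6% of all rows). Limk2 changed by 0.72 on the log2 scale with OGD in shRac1 cells and by 0.04 in shLuci cells, and the difference was 0.68 with a standard error of 0.12 (limma, adjusted p = 0.00134). This difference was called under all 27 alternatives, with log2 values of 0.62 to 0.74. The authors' lists set OGD against undeprived libraries in the pairs shLuci+OGD with shRac1 and shRac1+OGD with BMSC. In this fit the log2 change of Limk2 was 0.64 for the first pair and 0.29 for the second, higher in the OGD libraries of both. The call between shRac1+OGD and BMSC libraries was lost under 11 of 27 alternatives. Without BMSC replicate 2 the differences of Limk1 (0.68), Actr3 (0.22) and Arpc5 (0.20) were also called higher, and those of Wasf1 (-0.55), Baiap2 (-0.39) and Cfl2 (-0.32) lower. Because shRac1 libraries enter 1 side of both, the difference for Limk2 and its low level in undeprived shRac1 libraries are not independent.

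The comparison of shRac1 with shLuci libraries concerns the hairpin without deprivation. Of the 36 rows 1 rose and 2 fell (8.33%, against 16.7% of all rows), or 2 and 4 without BMSC replicate 2 (16.7%, against 37.3% of all rows). Limk2 fell by 0.60 on the log2 scale, with a standard error of 0.08 (limma, adjusted p = 0.000256), at 9.82 ± 0.409 FPKM in shRac1 and 15.1 ± 0.492 FPKM in shLuci libraries. Arpc5 fell by 0.23, at 121 ± 2.59 FPKM in shRac1 and 142 ± 2.68 FPKM in shLuci libraries (limma, adjusted p = 0.019). That call was lost under TPM scale (adjusted p = 0.219), median-of-ratios scaling (0.0561) and quantile normalization (0.142), and without shLuci replicate 1 (0.0771), shLuci replicate 3 (0.0533), shRac1 replicate 1 (0.0751) or shRac1 replicate 2 (0.0613).

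Cfl2 (chromosome 6), the muscle-type cofilin, rose in the same comparison. It had 129.7, 138 and 134 FPKM in shRac1 libraries and 96.0, 101 and 101 FPKM in shLuci libraries. Those values do not overlap, as for 3 of the 36 rows in that direction and 8 in the other. The share over all rows is not given here. Its log2 change was 0.43 with a standard error of 0.10 (limma, adjusted p = 0.00751), and the call was lost on the TPM scale (adjusted p = 0.125) and under quantile normalization (0.0709). The deprived libraries lay between, at 124, 129 and 128 FPKM in shRac1+OGD and 117, 118 and 118 FPKM in shLuci+OGD. BMSC libraries had 126, 95.1 and 127 FPKM, the low value being that of replicate 2. Of the summed FPKM of Cfl1 and Cfl2, Cfl2 made up 10.2% ± 0.0545 in shRac1 and 7.64% ± 0.719 in shLuci libraries, 10.0% ± 0.323 in shRac1+OGD and 9.30% ± 0.485 in shLuci+OGD libraries, and 10.8%, 4.77% and 10.0% in the BMSC libraries. Cfl1 itself averaged 1175 ± 39.9 FPKM in shRac1 and 1208 ± 91.3 FPKM in shLuci libraries and was not called.

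After OGD, 1 row differed between the hairpins and it was lower (7.43% of all rows were called), or 1 higher and 4 lower without BMSC replicate 2, where 21.5% of all rows were called. Baiap2 averaged 11.6 ± 0.698 FPKM in shRac1+OGD and 17.0 ± 0.917 FPKM in shLuci+OGD libraries, a log2 change of -0.53 (limma, adjusted p = 0.00566), which was called under all 27 alternatives. Without BMSC replicate 2, Arpc1b (-0.29), Wasf1 (-0.35) and Pak4 (-0.32) were also lower and Actr3 (0.17) was higher on the log2 scale. Actr3 had 300.6, 305 and 302 FPKM in shRac1+OGD and 262, 272 and 274 FPKM in shLuci+OGD libraries, which do not overlap, as in 14.7% of all rows in that direction.

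Against untransduced BMSC libraries, shLuci libraries had 2 rows higher and none lower (14.3% of all rows were called), or 7 and 1 without BMSC replicate 2 (32% of all rows). Arpc5 changed by 0.23 (adjusted p = 0.0208) and Baiap2 by 0.37 (adjusted p = 0.0298, both limma) on the log2 scale. Arpc5 was not called without shLuci replicate 1 (adjusted p = 0.0765), 2 (0.056) or 3 (0.0615), nor Baiap2 without BMSC replicate 3 (0.0887), shLuci replicate 1 (0.066) or 2 (0.138), and neither with only the 2 groups in the fit (0.36 and 0.35). Both calls were also lost under median-of-ratios scaling (0.34 for Arpc5 and 0.17 for Baiap2) and quantile normalization (0.106 and 0.266). Arpc5 was lost on the TPM scale as well (0.0925). Without BMSC replicate 2, Arpc1b (0.46), Arpc3 (0.38), Arpc1a (0.31), Arhgdia (0.28) and Arpc2 (0.27) were also higher and Cfl2 (-0.35) was lower. The shRac1 libraries had no row higher and 1 lower than BMSC libraries, where 10.7% of all rows were called. It was Limk2, at -0.43 on the log2 scale (limma, adjusted p = 0.00558). That call was lost on the TPM scale (0.161) and with only the compared groups in the fit (0.221). Arpc1a (0.30), Brk1 (0.29) and Capza2 (0.21) were higher as well without BMSC replicate 2 (21.1% of all rows were called).

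The pairs of OGD and undeprived libraries that the authors' deposited lists set against each other were compared too. Between shLuci+OGD and shRac1 libraries 3 rows rose and 1 fell (15.7% of all rows were called), or 8 and 2 without BMSC replicate 2 (37.4%). Baiap2 changed by 0.85, Limk2 by 0.64, Arpc5 by 0.39 and Pak1 by -0.28 on the log2 scale (limma, adjusted p of 0.000126, 0.00023, 0.000696 and 0.0123). The call of Pak1 was lost without shRac1 replicate 2 (0.058), on the TPM scale (0.173) and under quantile normalization (0.08). The authors' deposited table for this pair lists 2 members, Baiap2 with a log2 fold change of 0.82 and a q-value of 0.00525 and Limk2 with 0.62 and a q-value of 0.0061. Their other deposited lists held no member. Between shRac1+OGD and BMSC libraries 4 rows rose and none fell (13.5% of all rows were called), or 7 and 1 without BMSC replicate 2 (26.3%). Baiap2 changed by 0.55 (adjusted p = 0.00383), Capza2 by 0.43 (0.0289), Arpc5 by 0.37 (0.00154) and Limk2 by 0.29 (0.0353) on the log2 scale, all by limma. Without shRac1+OGD replicate 1 or 2, adjusted p rose to 0.141 and 0.122 for Limk2 and to 0.0834 and 0.0999 for Capza2, and Capza2 had 0.0728 without shRac1+OGD replicate 3. Limk2 also missed the threshold, at 0.05 to 0.0513, without shLuci replicate 2 or 3, shRac1 replicate 1 or shLuci+OGD replicate 3, and with the replicate number as a block (0.0586). On the TPM scale adjusted p was 0.0999 for Limk2 and 0.088 for Capza2. Quantile normalization gave 0.203 for Limk2, 0.0698 for Capza2 and 0.0665 for Baiap2. Median-of-ratios scaling gave 0.24 for Limk2, 0.0806 for Capza2 and 0.0625 for Arpc5. With only the compared groups in the fit, none of these 4 rows was called (0.156 to 0.343, all limma). These comparisons share libraries with those above and with each other.

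**Figure D5:**
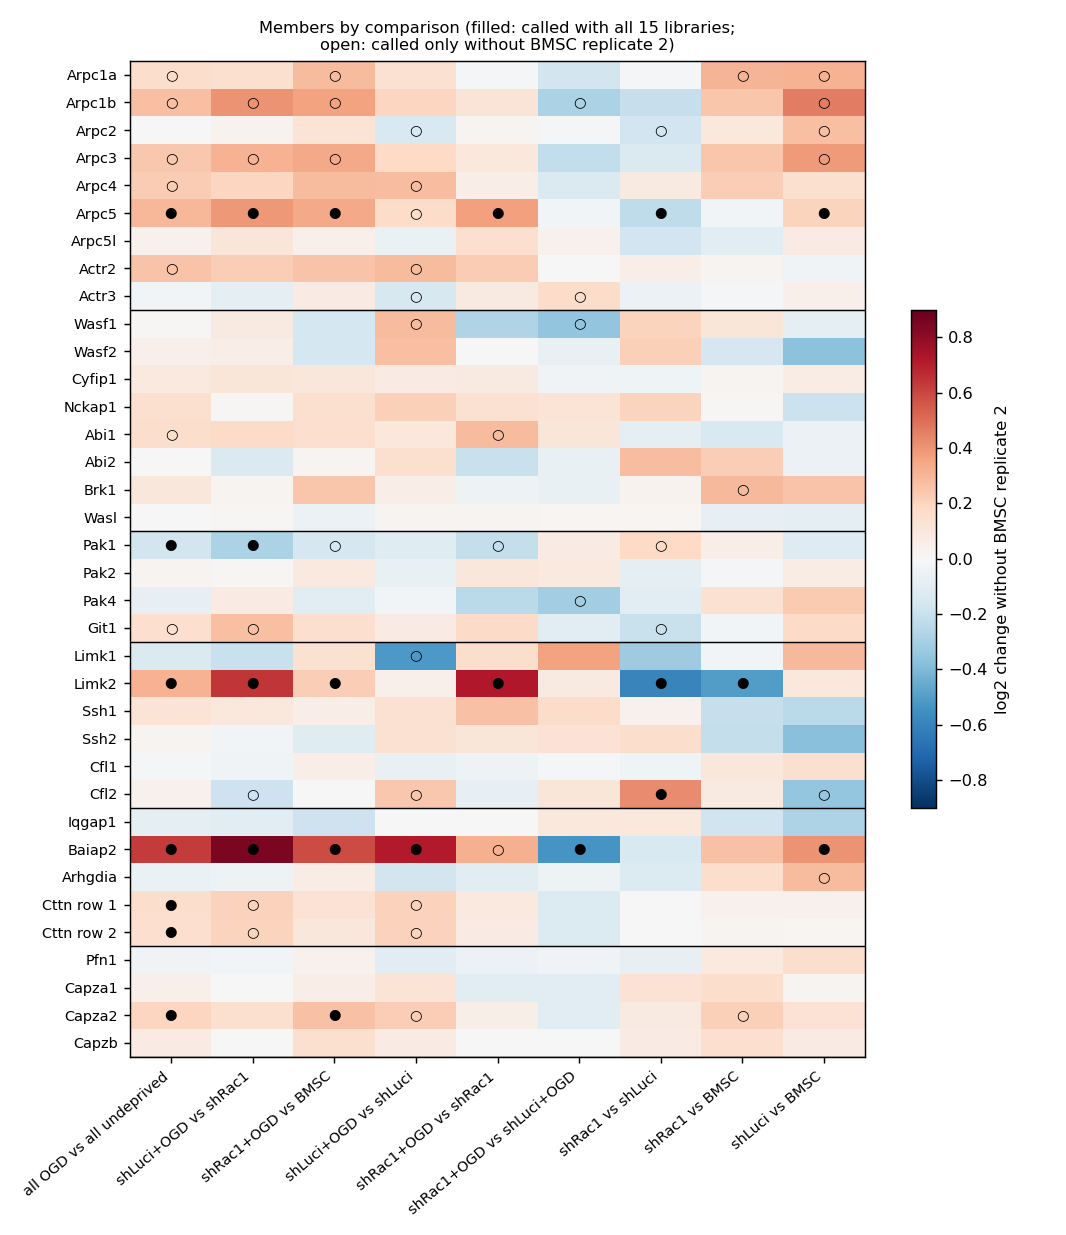
Log2 change of each row (rows, grouped by role) in 9 comparisons (columns) without BMSC replicate 2, in colour; filled circles mark rows called with all 15 libraries and open circles those called only without that library. Filled circles fall on Arpc5, Pak1, Limk2, Cfl2, Baiap2, Cttn and Capza2, and open circles on Arp2/3 subunits and other members alike.

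Over all 10 comparisons, the interaction included, 7 members were called at least once with all 15 libraries, and 21 without BMSC replicate 2. Another 14 were called in neither setting: Arpc5l, Wasf2, Cyfip1, Nckap1, Abi2, Wasl, Pak2, Ssh1, Ssh2, Cfl1, Iqgap1, Pfn1, Capza1 and Capzb. They include the most abundant cofilin and profilin and most of the WAVE complex. The share of all rows called at least once over these comparisons is not given here. The counts can therefore not be read as particular to the members.

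Genes around the members were taken from lists of the same pathway, and called in the comparison of all OGD with all undeprived libraries (26.7% of all rows). Of 15 exchange factors that load Rac with GTP, 3 rose and none fell: Arhgef7, the PAK partner beta-PIX (0.28 on the log2 scale), Vav2 (0.24) and Swap70 (0.34). Of 11 GTPase-activating proteins, which switch Rac off, 3 rose and 2 fell. Arhgap22 rose by 0.85 (adjusted p = 5.9e-06, limma), at 9.74 to 19.1 FPKM after OGD and 5.06 to 11.7 FPKM without, and Chn2 rose by 0.41, while Chn1 fell by 0.40 and Arhgap24 by 0.58. Of 9 listed paralogs of the members, 3 rose and 1 fell. Actr3b, an Arp3 variant, rose by 1.12 (adjusted p = 0.000122, limma) at low levels, 1.29 to 3.76 FPKM after OGD and 0.375 to 1.501 FPKM without. Its OGD libraries by themselves met the filter of 1 FPKM in 3 or more libraries, while its median without OGD was 0.83 FPKM. That call is therefore not independent of the filter. Of 37 other actin factors, 7 rose and 9 fell. Paxillin (Pxn), an adhesion scaffold, rose by 0.45, while the coronin Coro1c fell by 0.34, the formin Daam1 by 0.45 and zyxin (Zyx) by 0.38. Without BMSC replicate 2 the counts that rose and fell were 6 and 2 for the exchange factors, 5 and 2 for the activating proteins, 4 and 2 for the paralogs and 14 and 12 for the other actin factors (49.2% of all rows were called).

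Between shRac1 and shLuci libraries, none of the exchange factors rose and 1 fell. This was Elmo1, the partner of Dock1, at 0.187 ± 0.0929 FPKM in shRac1 and 1.11 ± 0.234 FPKM in shLuci libraries (log2 change -1.23, adjusted p = 0.0249). After OGD Elmo1 was higher, at 1.37 ± 0.0811 FPKM in shRac1+OGD and 0.243 ± 0.0581 FPKM in shLuci+OGD libraries (log2 change 1.33, adjusted p = 0.0301), and the difference between the OGD effects was 2.56 (adjusted p = 0.00225, all limma). The matrix gene Mgp likewise averaged 0.409 FPKM in shRac1 and 172 FPKM in shLuci libraries, and 9.63 FPKM in shRac1+OGD and 0.549 FPKM in shLuci+OGD libraries. BMSC libraries averaged 7.41 FPKM of Mgp and 1.27 ± 0.950 FPKM of Elmo1 (SD, n = 3). For both genes the mean of shRac1+OGD was nearest to that of BMSC, and that of shLuci+OGD nearest to that of shRac1. Mgp was chosen after its values were seen, and not all members followed these pairs. Limk2 averaged 15.6 FPKM in shLuci+OGD libraries, nearer to 15.1 FPKM in shLuci than to 9.82 FPKM in shRac1 libraries. Baiap2 averaged 11.6 FPKM in shRac1+OGD libraries, nearer to 10.2 FPKM in shLuci than to 7.79 FPKM in BMSC libraries. Both genes rose with OGD, which can bring an OGD mean nearest the higher undeprived mean under either pairing. Their values therefore cannot decide whether the titles match. Other members were not compared in this way, and whether the titles of the libraries match their cells was not tested. In shRac1 against shLuci libraries, 1 of the Rac GTPase-activating proteins rose and 1 fell. Of the paralogs 2 rose and 1 fell, and of the other actin factors 3 rose and 1 fell (16.7% of all rows were called). The counts that rose and fell without BMSC replicate 2 were 2 and 4 for the exchange factors, 4 and 3 for the activating proteins, 2 and 2 for the paralogs and 12 and 11 for the other actin factors (37.3% of all rows were called).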

How the data were processed

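The authors sequenced total RNA; per the submitters' processing notes they used HISAT2 and StringTie 1.2.3. The genome build, not given in the sources used here, may differ from that of the promoter sequences. The deposited table gives FPKM per gene and library. The deposited lists of changed genes hold the authors' log2 fold changes, ratios (fold changes), p-values and q-values. In those lists 72 columns of per-library values were not used.

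Groups were taken from the sample titles. The members, lists and tests were chosen with earlier results of these data known. Rows reaching 1 FPKM in 3 or more of the 15 libraries were kept (11515, with 654 removed). limma 3.58.1 in R 4.3.3 was run on log2(FPKM + 0.5), in 1 fit of 5 group means with 10 residual degrees of freedom and a mean-variance trend. P-values are two-sided and adjusted by Benjamini and Hochberg over all rows of a comparison. Adding 0.5 before taking logs understates the changes of genes with low FPKM. From each other list, up to 4 called genes with the smallest p in a comparison could be named; Mgp was named after its values were seen. A further gene list is not reported here. The fit was tested on simulated data. Deviations of same-numbered replicates had a median correlation of -0.0221, against -0.0133 for different numbers, and samples were treated as unpaired. Deviations also varied with gene length, so this check cannot exclude a pairing. Alternatives were other pseudocounts, filters and scalings, a fit to the compared groups, a replicate block, library weights, no trend, and leaving out each library. Leaving out BMSC replicate 2 and shLuci replicate 1 together was added after seeing the data.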

Additional observations from a re-analysis of the deposited data

Results flagged for a closer look

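The effect of OGD on Limk2 differed between the viruses by a test of the difference itself. The log2 change, shRac1+OGD minus shRac1 less that of shLuci+OGD minus shLuci, was 0.68 (limma, adjusted p = 0.00134), from 16.5 and 9.82 FPKM in shRac1+OGD and shRac1 libraries against 15.6 and 15.1 FPKM in shLuci+OGD and shLuci libraries. All 3 shRac1 libraries lay below every other library, and the authors' deposited table lists Limk2 as higher in shLuci+OGD than in shRac1. Their lists for shLuci against shRac1 held no member, so Limk2 is not among the genes listed for that pair. In the same fit the log2 change of Limk2 was 0.64 for shLuci+OGD against shRac1 and 0.29 for shRac1+OGD against BMSC. These are the pairs in which the authors' lists set OGD against undeprived libraries. The call against BMSC was lost under 11 of 27 alternatives, among them median-of-ratios scaling (log2 change 0.14, limma, adjusted p = 0.24). Whether the titles of these libraries match their cells was not tested.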

How the results depend on the processing

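Of the 26 member calls made with all 15 libraries, 12 held under every alternative tried and 14 were lost under at least 1; none turned round. Those that held were of Arpc5 for all OGD, shRac1+OGD against shRac1 and shLuci+OGD against shRac1, of Baiap2 for all OGD, shLuci+OGD against shLuci, shRac1+OGD against shLuci+OGD and shLuci+OGD against shRac1, and of Limk2 for all OGD, the interaction, shRac1+OGD against shRac1, shRac1 against shLuci and shLuci+OGD against shRac1. Counts of called rows for all OGD against undeprived were 7 as reported, 4 on the TPM scale, 4 with median-of-ratios scaling and 4 with quantile normalization. The same scalings gave 2, 3 and 2 for shLuci+OGD against shLuci (1 as reported) and 2, 2 and 2 for shRac1+OGD against BMSC (4 as reported). The TPM scale gave 0 for shRac1 against BMSC and quantile normalization gave 3 for the interaction. Median-of-ratios scaling gave 1 for shLuci against BMSC, a lower row, and neither of the 2 reported rises. Under it, the 3 rows for shLuci+OGD against shLuci were 1 higher and 2 lower. The 2 for shRac1+OGD against BMSC were 1 higher and 1 lower. Fitting only the groups compared gave 7 for the interaction, 6 for shLuci+OGD against shLuci, 9 for shLuci+OGD against shRac1, 5 for shRac1 against shLuci, 4 for shRac1+OGD against shLuci+OGD, 10 for shRac1+OGD against shRac1 and 0 for each comparison with BMSC. Library weights, whose estimate stopped before it converged, gave 19 for all OGD, 17 for the interaction, 16 for shLuci and 16 for shRac1 against BMSC, 17 for shLuci+OGD against shLuci, 16 for shLuci+OGD against shRac1, 24 for shRac1 against shLuci, 18 for shRac1+OGD against BMSC, 9 for shRac1+OGD against shLuci+OGD and 19 for shRac1+OGD against shRac1. The weights also called 3404 to 8239 of all 11515 rows in these comparisons, 7275 of them for all OGD and 8239 for shRac1 against shLuci. Without BMSC replicate 2 and shLuci replicate 1 the counts, in that order, were 14, 7, 7, 5, 11, 12, 7, 9, 5 and 7. Leaving out each library in turn gave 4 to 14, 1 to 7, 0 to 8, 1 to 4, 1 to 12, 3 to 10, 2 to 6, 2 to 10, 1 to 5 and 2 to 5 in that order, each highest value being without BMSC replicate 2 except for shRac1+OGD against BMSC, where it was without BMSC replicate 1. For all OGD the count was lowest without shLuci+OGD replicate 1 or 2 or shRac1+OGD replicate 1 or 2. The replicate block gave 7 for all OGD, 3 for shRac1+OGD against BMSC (4 as reported) and 3 for shRac1+OGD against shRac1 (2 as reported). Same-numbered libraries correlated at -0.638 to 0.56 in their deviations, with 11 of 30 pairs over 0.1, and no other count changed under the block.

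Directions turned round only for members not called with all 15 libraries. With median-of-ratios scaling, log2 changes were -0.0086 for Arpc1a in all OGD, -0.022 for Arhgdia and -0.035 for Arpc3 in shLuci against BMSC, -0.062 for Arpc1a, -0.018 for Arpc1b and -0.111 for Arpc3 in shRac1+OGD against BMSC, and -0.096 for Brk1 in shRac1 against BMSC. The TPM scale gave 0.0052 for Pak1 in shRac1+OGD against BMSC. Leaving out each library in turn, the ranges were -0.064 to 0.28 for Arhgdia, -0.0013 to 0.31 for Arpc1a and -0.082 to 0.38 for Arpc3 in shLuci against BMSC. They were -0.011 to 0.30 for Arpc1a and -0.23 to 0.29 for Brk1 in shRac1 against BMSC, and -0.030 to 0.28 for Arpc1a, -0.021 to 0.37 for Arpc1b and -0.12 to 0.34 for Arpc3 in shRac1+OGD against BMSC. The causes were not tested. Without counts, the precision that depth gives to scarce members such as Ssh2 and Limk1 is unknown.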
